A study of Mus musculus with 20 samples.

Results

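The glycolysis and glucose or lactate transport module comprised 31 mouse genes, found as the rows of the deposited expression table whose Ensembl identifier carries the gene symbol. All 31 were among the 39179 genes of the table, each on a single row. All 31 also belonged to the 15536 genes kept here, for which at least 1 of the 5 group averages reached 10 normalised read counts. Hk3 was kept through the TFH average alone.

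The 6 Id2-/-Id3-/- lymphomas were T-cell tumours sorted from C57BL/6 mice, labelled as 1 thymic, 4 lymph node and 1 splenic tumour, of which 2 were CD8+ and 4 CD4+. Tumour-bearing mice in the study carried loxP-flanked Id2 and Id3 with a Cre driven from the IL7R, CD4 or dLck locus or promoter, and which driver the sequenced tumours had is not stated in any source used here. The 3 Id2-/-Id3-/- CD4SP samples were CD4+TCRb+CD8- thymocytes of 8-wk-old mice with loxP-flanked Id2 and Id3 and IL7R-Cre, which acts from lymphoid progenitors onward. The 3 TFH samples were CD4+TCRb+CD44highCXCR5+ spleen cells of wild-type mice that had been immunised with sheep red blood cells. The 3 samples labelled Id3-/- and the 5 control samples were CD4SP thymocytes sorted by the same surface markers at the same age. The control samples are labelled wild type, whereas the study describes Id3+/- or littermate controls.

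Glycolysis splits glucose into pyruvate in the cytosol and yields a small amount of ATP together with intermediates for nucleotide, lipid and amino acid synthesis. Resting thymocytes and naive T cells mostly oxidise pyruvate in mitochondria, whereas activated and dividing T cells take up more glucose and convert much of the pyruvate to lactate, which leaves the cell through monocarboxylate transporters. Several steps are carried out by isozymes encoded by separate genes, which differ in kinetics, regulation and tissue distribution.

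Every value given here is the authors' average over the libraries of a group, in DESeq-normalised counts. No value per library was used, so no spread, interval or test accompanies any difference, and "higher" and "lower" describe ratios of averages only. The depth of the libraries is unknown. A difference in these bulk samples can reflect fewer cells of a type or less RNA per cell, which cannot be told apart.

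Id2 was far below control in both groups labelled as lacking it, while Id3 was not lower in every group labelled as lacking it. Id2 stood at 30.5 in lymphomas, 6.82 in Id2-/-Id3-/- CD4SP cells, 1628 in TFH cells, 1764 in Id3-/- labelled libraries and 2293 in control CD4SP cells. Id3 stood at 857 in lymphomas, 879.7 in Id2-/-Id3-/- CD4SP cells, 1777 in TFH cells, 2649.7 in Id3-/- labelled libraries and 1991 in control CD4SP cells. Thus the libraries labelled Id3-/- carried Id3 above control on average, and are named by their label throughout. Reads from exons outside a deleted part would still count.

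Markers of T cells and of other cells also differed. The summed average of 10 alpha beta T-cell markers was 76406 in lymphomas, 98826 in Id2-/-Id3-/- CD4SP cells, 106662 in TFH cells, 96046 in Id3-/- labelled libraries and 109698 in control cells. Of these markers, 3 were over 2-fold lower than control in lymphomas and 1 in Id2-/-Id3-/- CD4SP cells, and none was over 2-fold higher. The summed average of 12 myeloid markers was 931 in lymphomas, 235 in Id2-/-Id3-/- CD4SP cells, 106 in TFH cells, 166 in Id3-/- labelled libraries and 105 in control cells, with S100a8 and S100a9 at 0 in the libraries labelled Id3-/-. The summed average of 8 B-cell markers was 594, 139, 1979, 82.8 and 122 in the same order of groups. Against control, 7 of the 8 were over 2-fold higher and 0 lower in TFH cells, and 3 were higher and 1 lower in lymphomas. Single genes held most of the higher sums, Cd22 with 1421 in TFH cells, against 15.8 in control cells, and Cd79b with 455 in lymphomas, against 21.99 in control cells. The summed average of 8 thymic epithelial and stromal markers was 5478 in lymphomas, 1007 in Id2-/-Id3-/- CD4SP cells, 110 in TFH cells, 212 in Id3-/- labelled libraries and 128 in control cells. Epcam, at 3797 in lymphomas and 593 in Id2-/-Id3-/- CD4SP cells, against 70.7 in control cells, and Col1a1, at 1663 and 377, against 24.7 in control cells, made up most of it, while Krt5, Krt8, Foxn1, Col1a2 and Pdgfra averaged under 10 in every group. Psmb11, the remaining marker of the 8, was over 2-fold lower than control in lymphomas and within 2-fold of it in Id2-/-Id3-/- CD4SP cells. The summed average of 10 erythroid markers was 8389, 2718, 511, 1447 and 1192 in the same order of groups. Of the 5 kept, 5 were over 2-fold higher than control in lymphomas, and 1 was higher and 4 lower in Id2-/-Id3-/- CD4SP cells. Among them, the haemoglobin gene Hba-a2 averaged 185 in lymphomas, 6.06 in Id2-/-Id3-/- CD4SP cells, 5.30 in TFH cells, 84.5 in Id3-/- labelled libraries and 18.8 in control cells, and Hbb-bs 127, 7.19, 2.41, 62.7 and 17.3 in the same groups. Hba-a2 and Hbb-bs held a small part of each sum, and the list also included Tfrc, the transferrin receptor gene. In Id2-/-Id3-/- CD4SP cells the sum was above control although both haemoglobin genes were lower, so it does not follow them. Of 4 CD8+ T-cell markers, Cd8a was higher in lymphomas, at 1388, against 128 in control cells, whereas Cd8b1, Gzmb and Prf1 averaged 461, 2.63 and 51.0 in lymphomas, against 588, 48.9 and 62.6 in control cells. In Id2-/-Id3-/- CD4SP cells all 4 were over 2-fold lower than control, with a summed average of 263 against 827. In TFH cells 2 of the 4 were over 2-fold lower and 0 higher. Of 14 proliferation markers, 10 were over 2-fold higher in lymphomas than in control cells and 5 in Id2-/-Id3-/- CD4SP cells, among them Rrm2, at 1742, 2007 and 645 in lymphomas, Id2-/-Id3-/- CD4SP cells and control cells. Over all genes, 18.7% were over 2-fold higher and 18.2% lower than control in lymphomas, and 15.1% and 10.9% in Id2-/-Id3-/- CD4SP cells. In TFH cells the shares were 12.4% and 10.9%. The part of these marker differences in the results below was not tested.

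Across the module, lymphomas had the most members over 2-fold above control. In lymphomas 15 of 31 members were over 2-fold higher and 2 over 2-fold lower than in control cells, where 18.7% and 18.2% of 15527 genes were. In Id2-/-Id3-/- CD4SP cells 7 members were over 2-fold higher and 2 over 2-fold lower than in control cells, beside 15.1% and 10.9% of 15513 genes. In TFH cells 3 were over 2-fold higher and 4 lower, beside 12.4% and 10.9% of 15516 genes. In the libraries labelled Id3-/- none passed 2-fold in either direction, beside 6.32% higher and 5.78% lower of 15509 genes. Between lymphomas and Id2-/-Id3-/- CD4SP cells 6 members were over 2-fold higher in lymphomas and 0 lower, beside 11.6% and 15.2% of 15531 genes. The 4 comparisons with control share a single control average and are therefore not independent.

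The members' shares over 2-fold higher were 48.4% for lymphomas and 22.6% for Id2-/-Id3-/- CD4SP cells, each above the share over all genes. The share was 9.68% in TFH cells and 0% in the libraries labelled Id3-/-, each below it. The shares for Id2-/-Id3-/- CD4SP and TFH cells rest on 7 and 3 members and lie within a few genes of the share over all genes. The median log2 ratio of the members was 0.99 in lymphomas, 0.35 in Id2-/-Id3-/- CD4SP cells, 0.24 in TFH cells and 0.07 in the libraries labelled Id3-/-, all against control, whereas the medians over all genes lay between -0.02 and 0.02. Between lymphomas and Id2-/-Id3-/- CD4SP cells it was 0.67, and 0.03 over all genes. As a share of all normalised counts, the 31 members took 0.771% in lymphomas, 0.527% in Id2-/-Id3-/- CD4SP cells, 0.45% in TFH cells, 0.518% in Id3-/- labelled libraries and 0.495% in control cells.

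**Figure D1:**
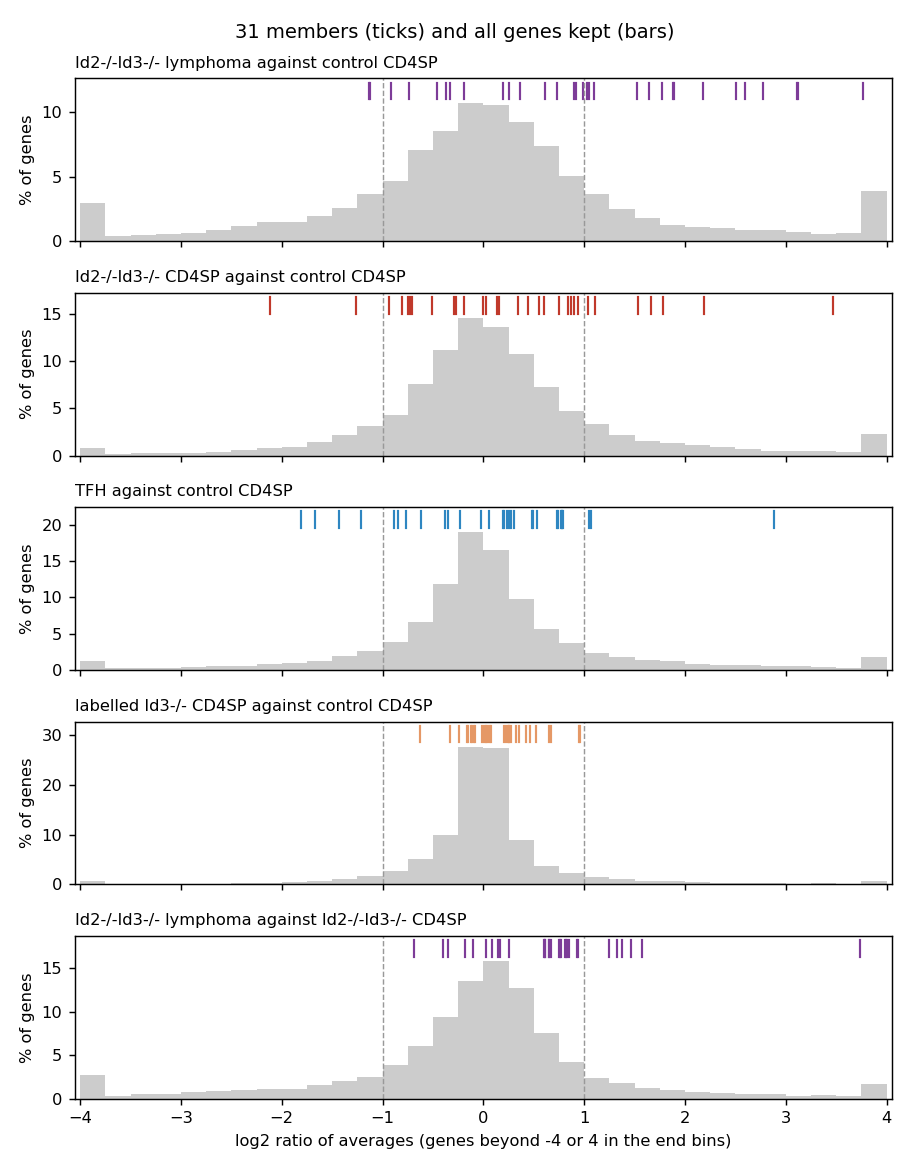
Log2 ratios of the 31 members (coloured ticks) above the distribution of all genes kept (grey bars, percent of genes per bin of 0.25) for each comparison, with dashed lines at 2-fold. In lymphomas 15 ticks lie right of the upper dashed line, against 7 in Id2-/-Id3-/- CD4SP cells, 3 in TFH cells and 0 in the libraries labelled Id3-/-.

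The members farthest above control belonged to different steps of the pathway, and the sequences before their transcription starts differed. The 250 bases before a start, from RefSeq windows on GRCm38.p6, are shown for Pdk2, which had the highest ratio of all members in Id2-/-Id3-/- CD4SP cells, for Slc16a3, which came after Aldoc alone in lymphomas, for Pgam1, a further gene higher in both, and for Ldhb, which had the lowest ratio in Id2-/-Id3-/- CD4SP cells. Pdk2 has 2 such windows, and the one not shown holds no ACGTG. Tpi1 and Pgam2, not shown, stood farther above control than Pgam1 in both groups. Of the members over 2-fold higher in lymphomas, Aldoc, Tpi1, Pgam2, Pfkl, Gapdh, Gpi1 and Eno3 have no ACGTG in any window, and the others have it. Of those over 2-fold lower in lymphomas, Pfkm has it and Eno2 does not. Capitals mark ACGTG on either strand, the core of the sequence bound by hypoxia-inducible factors, which CACGTG, an E-box bound by MYC, contains on both strands.
Pdk2, chr11:95041372-95041621, minus strand: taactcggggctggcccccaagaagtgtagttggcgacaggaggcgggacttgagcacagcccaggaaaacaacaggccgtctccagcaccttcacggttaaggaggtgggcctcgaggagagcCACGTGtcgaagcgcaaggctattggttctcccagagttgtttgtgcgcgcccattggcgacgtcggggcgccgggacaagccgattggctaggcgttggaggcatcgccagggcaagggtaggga
Slc16a3, chr11:120948817-120949066, plus strand: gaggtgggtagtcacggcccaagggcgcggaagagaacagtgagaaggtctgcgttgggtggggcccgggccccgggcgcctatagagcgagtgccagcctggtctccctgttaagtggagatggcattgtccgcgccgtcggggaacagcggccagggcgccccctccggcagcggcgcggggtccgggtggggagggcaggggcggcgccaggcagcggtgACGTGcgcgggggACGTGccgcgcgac
Pgam1, chr19:41911621-41911870, plus strand: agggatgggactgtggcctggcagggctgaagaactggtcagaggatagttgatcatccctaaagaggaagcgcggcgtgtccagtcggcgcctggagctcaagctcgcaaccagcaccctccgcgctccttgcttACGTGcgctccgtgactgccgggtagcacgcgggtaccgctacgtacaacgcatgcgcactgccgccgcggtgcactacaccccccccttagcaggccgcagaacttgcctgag
Ldhb, chr6:142507958-142508207, minus strand: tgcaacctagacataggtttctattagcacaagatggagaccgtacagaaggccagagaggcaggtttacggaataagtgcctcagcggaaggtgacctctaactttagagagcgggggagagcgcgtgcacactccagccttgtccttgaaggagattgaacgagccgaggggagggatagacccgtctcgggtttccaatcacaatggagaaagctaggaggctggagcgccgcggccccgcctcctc

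Of the 30 members with a RefSeq window, 14 had ACGTG in the 250 bases before at least 1 start, in 17 of their 44 windows, whereas 5444 of all 32851 windows (16.6%) had it. Windows are not matched to genes one to one, since Aldoa, Eno1 and Pfkm had more than 2. CACGTG occurred for 5 members (Ldha, Pdk2, Pfkfb3, Pfkm and Slc16a1), in 5 of the 44 member windows, and in 6.02% of all windows. The E-box sequences CAGCTG and CACCTG, which E proteins bind, occurred for 4 and 3 members. Each was in 4 of the 44 member windows, beside 13.0% and 17.2% of all windows. Both strands were searched, and a match is a description of the letters, not of binding.

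Glucose enters T cells through GLUT1 and GLUT3, the products of Slc2a1 and Slc2a3. Slc2a1 averaged 847 in lymphomas, 503 in Id2-/-Id3-/- CD4SP cells, 554 in TFH cells, 505 in Id3-/- labelled libraries and 395 in control cells. Slc2a3, whose product has the higher affinity for glucose, averaged 1106, 577, 522, 1151 and 965 in the same groups. Slc2a1 was thus 2.14-fold higher in lymphomas than in control cells, whereas the lowest Slc2a3 averages were those of TFH and Id2-/-Id3-/- CD4SP cells, with log2 ratios to control of -0.89 and -0.74. Divided by exon length, Slc2a1 made up 61.3% of the pair in lymphomas, 64.3% in Id2-/-Id3-/- CD4SP cells, 68.7% in TFH cells, 47.6% in Id3-/- labelled libraries and 45.8% in control cells.

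Hexokinases phosphorylate glucose and trap it in the cell. Hk1, the ubiquitous isozyme, was the most abundant hexokinase per length in every group and stayed within 1.30-fold of control, at 1765 in lymphomas, 1999.5 in Id2-/-Id3-/- CD4SP cells, 2644 in TFH cells, 2328 in Id3-/- labelled libraries and 2287 in control cells. Hk2, the isozyme induced in activated lymphocytes and many tumours, averaged 264 in lymphomas, 88.5 in Id2-/-Id3-/- CD4SP cells, 79.5 in TFH cells, 58.0 in Id3-/- labelled libraries and 46.2 in control cells. It was 5.70-fold higher in lymphomas than in control cells and 2.98-fold higher than in Id2-/-Id3-/- CD4SP cells, where the ratio to control was 1.91. Its share of the family per length was 17.5% in lymphomas and 5.9% in Id2-/-Id3-/- CD4SP cells, against 2.8% in control cells. Hk3, a hexokinase of myeloid cells, stayed between 4.61 and 15.1 in all 5 groups.

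The upper steps turn glucose 6-phosphate into triose phosphates. Gpi1, glucose-6-phosphate isomerase, averaged 8658 in lymphomas, 7727 in Id2-/-Id3-/- CD4SP cells, 5074 in TFH cells, 4957 in Id3-/- labelled libraries and 4241 in control cells. The ratio to control was 2.04 in lymphomas and 1.82 in Id2-/-Id3-/- CD4SP cells, just above and below the 2-fold line. Aldoa, the main aldolase, averaged 6846, 6707, 5981, 4316 and 3608 in the same groups and passed 2-fold in none. Aldoc, an aldolase best known from the brain, averaged 212 in lymphomas, 16.0 in Id2-/-Id3-/- CD4SP cells, 116 in TFH cells, 30.2 in Id3-/- labelled libraries and 15.6 in control cells. Its averages therefore placed lymphomas and TFH cells apart from the CD4SP groups, with ratios to control of 13.6 in lymphomas and 7.40 in TFH cells, against 1.02 in Id2-/-Id3-/- CD4SP cells. Even in lymphomas it made up only 2.7% of the aldolases per length.

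Tpi1 encodes triosephosphate isomerase, which interconverts the products of aldolase. It averaged 3948 in lymphomas, 2238 in Id2-/-Id3-/- CD4SP cells, 1367 in TFH cells, 1268 in Id3-/- labelled libraries and 652 in control cells, so control had the lowest average. The fold over control was 6.06 in lymphomas, 3.43 in Id2-/-Id3-/- CD4SP cells, 2.10 in TFH cells and 1.95 in the libraries labelled Id3-/-. Spsb2, on the opposite strand, overlaps Tpi1 (chr6:124810586-124814296, minus strand, mm10) and averaged 43.2 in lymphomas and 95.2 in Id2-/-Id3-/- CD4SP cells, against 9.54 in control cells. The libraries kept strand, but whether the counting used it is not given in the sources used here.

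Phosphofructokinase commits sugar to glycolysis and is built from L, M and P subunits. Pfkl averaged 2499 in lymphomas, 1568 in Id2-/-Id3-/- CD4SP cells, 1265 in TFH cells, 1048 in Id3-/- labelled libraries and 729.6 in control cells. Pfkm, the muscle-type subunit, averaged 232 in lymphomas, 307 in Id2-/-Id3-/- CD4SP cells, 282 in TFH cells, 532 in Id3-/- labelled libraries and 509 in control cells. Pfkp, the platelet-type subunit, averaged 1841, 2348, 3188, 2466 and 1545 in the same groups. The subunits thus shifted against each other, with Pfkl 3.42-fold higher and Pfkm 2.19-fold lower in lymphomas than in control cells, and Pfkp 2.06-fold higher in TFH cells. Per length, Pfkl made up 64.4% of the subunits in lymphomas, 46.8% in Id2-/-Id3-/- CD4SP cells, 37.0% in TFH cells, 31.4% in Id3-/- labelled libraries and 29.0% in control cells. The largest share per length was that of Pfkp in TFH cells, at 46.5%, and that of Pfkm in control cells, at 40.4%.

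Pfkfb3 and Pfkfb4 make fructose 2,6-bisphosphate, which activates phosphofructokinase, and also degrade it. Pfkfb3 averaged 1551 in lymphomas, 872 in Id2-/-Id3-/- CD4SP cells, 1128 in TFH cells, 929 in Id3-/- labelled libraries and 782 in control cells, and its ratio of 1.98 in lymphomas lay just inside 2-fold. Pfkfb4 averaged 101, 85.0, 164, 128 and 139 in the same groups and was within 2-fold of control in each. The ratio of Pfkfb4 to Pfkfb3 was 0.0654 in lymphomas and 0.0975 in Id2-/-Id3-/- CD4SP cells, against 0.178 in control cells.

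**Figure D2:**
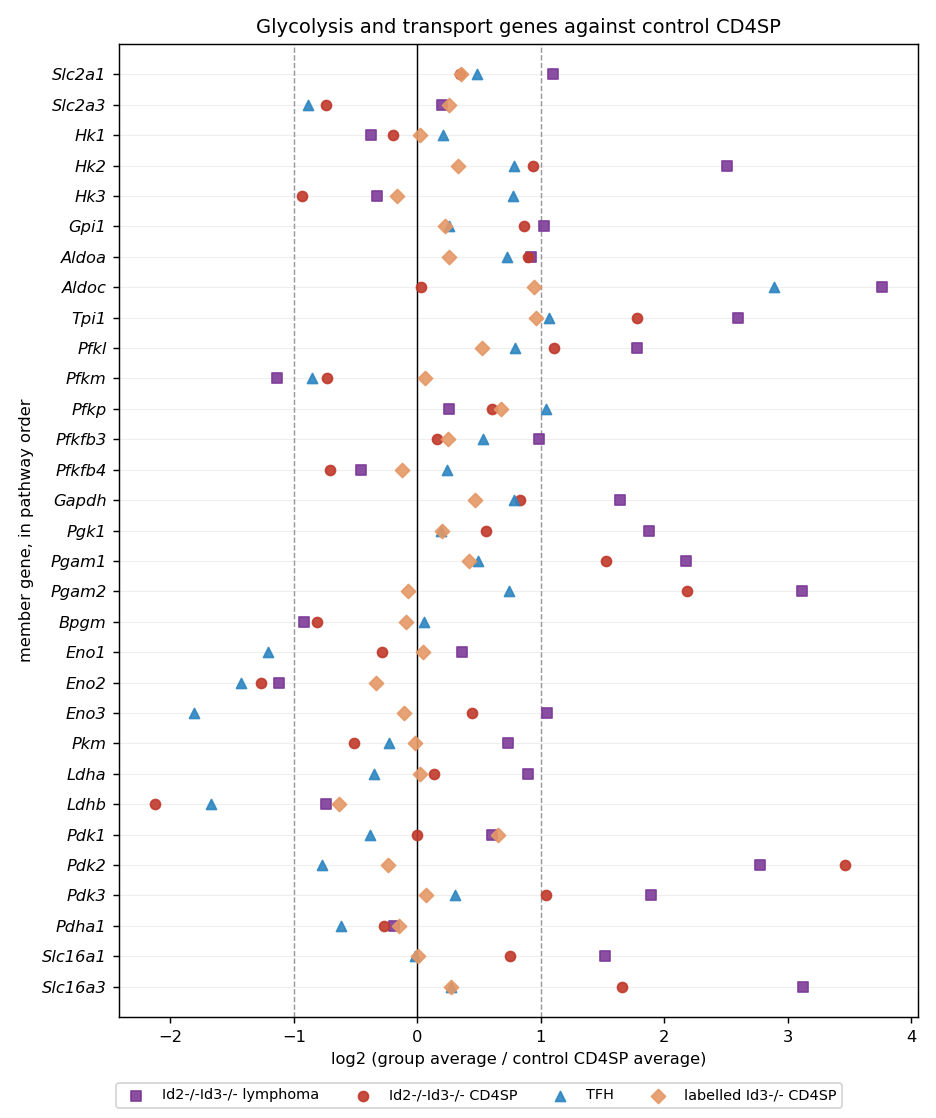
Log2 ratio of the group average to the control CD4SP average for the 31 members in pathway order, for lymphomas (squares), Id2-/-Id3-/- CD4SP cells (circles), TFH cells (triangles) and the libraries labelled Id3-/- (diamonds), with dashed lines at 2-fold. Pdk2 lies at 3.47 in Id2-/-Id3-/- CD4SP cells and Aldoc at 3.76 in lymphomas, the points farthest right, and Ldhb at -2.12 in Id2-/-Id3-/- CD4SP cells is the point farthest left.

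The payoff phase oxidises triose phosphates to pyruvate. Gapdh, glyceraldehyde-3-phosphate dehydrogenase, averaged 5671 in lymphomas, 3244 in Id2-/-Id3-/- CD4SP cells, 3133 in TFH cells, 2509 in Id3-/- labelled libraries and 1819 in control cells. Pgk1, phosphoglycerate kinase, averaged 8769, 3495, 2719, 2737 and 2383 in the same groups. Lymphomas thus stood above the other 4 groups for both genes, 3.12-fold above control for Gapdh and 3.68-fold for Pgk1, and for Pgk1 also 2.51-fold above Id2-/-Id3-/- CD4SP cells.

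Phosphoglycerate mutase moves the phosphate group of 3-phosphoglycerate. Pgam1, the main gene outside muscle, averaged 3158 in lymphomas, 2016 in Id2-/-Id3-/- CD4SP cells, 983 in TFH cells, 935 in Id3-/- labelled libraries and 698 in control cells. Pgam2, the muscle gene, averaged 378, 199, 73.1, 41.3 and 43.7 in the same groups. Both were therefore higher in the groups lacking Id2 and Id3, by 4.53-fold for Pgam1 and 8.66-fold for Pgam2 in lymphomas and by 2.89-fold and 4.55-fold in Id2-/-Id3-/- CD4SP cells. Bpgm, which diverts the pathway to 2,3-bisphosphoglycerate and is best known from red cells, ran the other way, at 282 in lymphomas, 304 in Id2-/-Id3-/- CD4SP cells, 552 in TFH cells, 500.0 in Id3-/- labelled libraries and 532 in control cells, within 2-fold of control. The ratio of Pgam1 to Bpgm was 11.2 in lymphomas and 6.64 in Id2-/-Id3-/- CD4SP cells, against 1.31 in control cells.

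Enolase makes phosphoenolpyruvate. Eno1, the ubiquitous isozyme, averaged 17602 in lymphomas, 11225 in Id2-/-Id3-/- CD4SP cells, 5912 in TFH cells, 14183 in Id3-/- labelled libraries and 13704 in control cells. Eno3, the muscle isozyme, averaged 1075, 704, 148, 479.8 and 518 in the same groups. TFH cells therefore had the lowest average of both, 2.32-fold below control for Eno1 and 3.51-fold below for Eno3, whereas Eno3 was 2.07-fold higher in lymphomas than in control cells. Eno2, the neuronal isozyme, averaged 52.0 in lymphomas, 47.1 in Id2-/-Id3-/- CD4SP cells, 42.1 in TFH cells, 89.8 in Id3-/- labelled libraries and 113 in control cells. It was 2.18-fold, 2.41-fold and 2.69-fold lower than in control cells in lymphomas, Id2-/-Id3-/- CD4SP cells and TFH cells.

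Pkm encodes pyruvate kinase, whose muscle-type and proliferation-associated forms arise from alternative exons of the same gene and share its row here. It averaged 23818 in lymphomas, 10034 in Id2-/-Id3-/- CD4SP cells, 12219.6 in TFH cells, 14169.8 in Id3-/- labelled libraries and 14321 in control cells. It was 2.37-fold higher in lymphomas than in Id2-/-Id3-/- CD4SP cells, which had the lowest average, and 1.66-fold higher than in control cells. Pkm, Eno1 and Ldha together held 49.2% of the normalised counts of the module in lymphomas, 41.9% in Id2-/-Id3-/- CD4SP cells, 42.3% in TFH cells, 52.4% in Id3-/- labelled libraries and 56.1% in control cells.

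Several members have near-identical copies elsewhere in the genome, among which reads can be split. Of all rows of the table, 99 shared at least 20% of their 31-base words with the transcripts of a member in GENCODE M21, spread over 7 members, and 17 of these rows reached an average of 10. For Pgk1 the copies Pgk1-rs7 and Gm5537 together averaged 5984 in lymphomas, 3497 in Id2-/-Id3-/- CD4SP cells, 1554 in TFH cells, 1719 in Id3-/- labelled libraries and 1063 in control cells. Gm5537 alone averaged 354 in lymphomas and 1574 in Id2-/-Id3-/- CD4SP cells, against 262 in control cells, so the split between gene and copies differed between groups. With the copies added, the log2 ratio of Pgk1 to control in Id2-/-Id3-/- CD4SP cells was 1.02 in place of 0.55, which brought it past 2-fold, and 2.10 in place of 1.88 in lymphomas.

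For Pgam1, the 2 copy rows, chiefly Pgam1-ps2, held 51.5% of the sum of gene and copies in lymphomas and 59.3% in Id2-/-Id3-/- CD4SP cells, against 60.6% in control cells. The log2 ratio with copies was 1.88 in place of 2.18 in lymphomas and 1.48 in place of 1.53 in Id2-/-Id3-/- CD4SP cells. Gapdh had 86 such rows, which held 11.0% of the sum in lymphomas and 26.6% in Id2-/-Id3-/- CD4SP cells, against 20.3% in control cells, and its log2 ratio with them was 1.48 in place of 1.64 and 0.95 in place of 0.83. The averages of these 3 genes by themselves are therefore uncertain. Eno1, Gpi1, Ldha and Ldhb also had such rows, and adding them moved each log2 ratio of these genes by at most 0.07. The other 24 members had none.

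**Figure D3:**
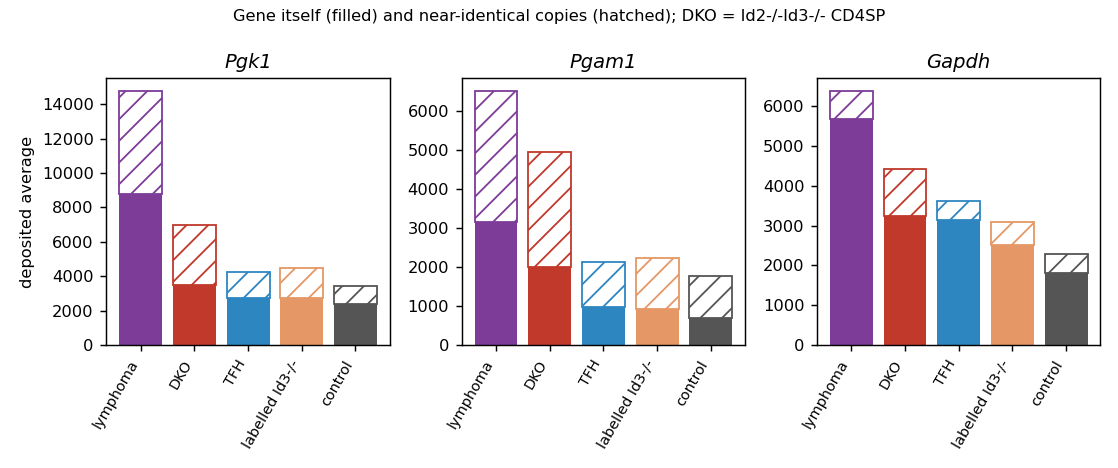
Deposited averages of Pgk1, Pgam1 and Gapdh (filled) with those of their near-identical copies stacked on top (hatched) in each group, in normalised counts. The copies of Pgk1 add 3497 in Id2-/-Id3-/- CD4SP cells, against 1063 in control cells, whereas those of Gapdh add 698 in lymphomas and 1177 in Id2-/-Id3-/- CD4SP cells, against 464 in control cells.

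Lactate dehydrogenase is a tetramer of A and B subunits, of which A favours the formation of lactate and B its oxidation. Ldha averaged 17395 in lymphomas, 10257 in Id2-/-Id3-/- CD4SP cells, 7323 in TFH cells, 9494 in Id3-/- labelled libraries and 9343 in control cells, within 2-fold of control in each. Ldhb (chr6:142490249-142507957, minus strand) averaged 1123 in lymphomas, 431 in Id2-/-Id3-/- CD4SP cells, 589 in TFH cells, 1209 in Id3-/- labelled libraries and 1876 in control cells. Control thus had the highest Ldhb average, and the fold below it was 4.35 in Id2-/-Id3-/- CD4SP cells and 3.18 in TFH cells, while 1.67 in lymphomas and 1.55 in the libraries labelled Id3-/- stayed within 2-fold. Of all genes kept, 455 had a lower ratio to control in Id2-/-Id3-/- CD4SP cells.

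In Id2-/-Id3-/- CD4SP cells, TFH cells and the libraries labelled Id3-/- Ldhb differed from control more than Ldha did. The ratio of Ldha to Ldhb was 15.5 in lymphomas, 23.8 in Id2-/-Id3-/- CD4SP cells, 12.4 in TFH cells, 7.85 in Id3-/- labelled libraries and 4.98 in control cells. Per length, Ldhb made up 12.0%, 8.1%, 14.5%, 21.2% and 29.7% of the pair in the same groups. Lymphomas had a 2.60-fold higher Ldhb average and a 1.70-fold higher Ldha average than Id2-/-Id3-/- CD4SP cells.

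Lactate leaves the cell through MCT4, the product of Slc16a3, and through MCT1, the product of Slc16a1, which carries it in either direction. Slc16a3 averaged 1012 in lymphomas, 367 in Id2-/-Id3-/- CD4SP cells, 140.4 in TFH cells, 141 in Id3-/- labelled libraries and 116 in control cells. Slc16a1 averaged 1362, 799, 468, 477 and 475 in the same groups. Both were highest in lymphomas, 8.71-fold above control for Slc16a3 and 2.87-fold for Slc16a1. In Id2-/-Id3-/- CD4SP cells Slc16a3 was 3.16-fold and Slc16a1 1.68-fold above control. Slc16a3 made up 38.2% of the pair per length in lymphomas and 27.6% in Id2-/-Id3-/- CD4SP cells, against 16.9% in control cells.

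Pyruvate dehydrogenase, whose E1 alpha subunit is encoded by Pdha1, carries pyruvate into the mitochondrial cycle and is switched off by phosphorylation by pyruvate dehydrogenase kinases. Pdk2 (chr11:95026258-95041354, minus strand) averaged 1576 in lymphomas, 2542 in Id2-/-Id3-/- CD4SP cells, 135 in TFH cells, 195 in Id3-/- labelled libraries and 230.1 in control cells. The groups lacking Id2 and Id3 thus stood 6.85-fold and 11.0-fold above control, and the other groups below it. Of all genes kept, 413 had a higher ratio to control in Id2-/-Id3-/- CD4SP cells. The antisense gene Gm11513, which overlaps Pdk2 on the opposite strand, averaged 7.33 in lymphomas and 26.7 in Id2-/-Id3-/- CD4SP cells, against 1.27 in control cells, and Samd14, which lies 171 bases away on the opposite strand, averaged 85.5 and 34.9, against 12.6 in control cells.

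Pdk1 and Pdk3 encode further kinases of the same family. Pdk1, a target of hypoxia-inducible factors, averaged 2786 in lymphomas, 1825 in Id2-/-Id3-/- CD4SP cells, 1402 in TFH cells, 2870.3 in Id3-/- labelled libraries and 1829 in control cells, within 2-fold of control in each. Pdk3, an X-linked kinase, averaged 1447 in lymphomas, 803 in Id2-/-Id3-/- CD4SP cells, 483 in TFH cells, 411 in Id3-/- labelled libraries and 390.2 in control cells, which placed it 3.71-fold and 2.06-fold above control in the groups lacking Id2 and Id3. Pdha1 averaged 2061, 1942, 1532, 2116 and 2347 in lymphomas, Id2-/-Id3-/- CD4SP cells, TFH cells, the libraries labelled Id3-/- and control cells. Per length, Pdk2 made up 35.0% of the 3 kinases in lymphomas and 59.4% in Id2-/-Id3-/- CD4SP cells, against 15.8% in control cells, where Pdk1 made up 51.1%. The ratio of Pdk1 to Pdk2 was 1.77 in lymphomas and 0.718 in Id2-/-Id3-/- CD4SP cells, against 10.4 in TFH cells, 14.7 in Id3-/- labelled libraries and 7.95 in control cells.

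**Figure D4:**
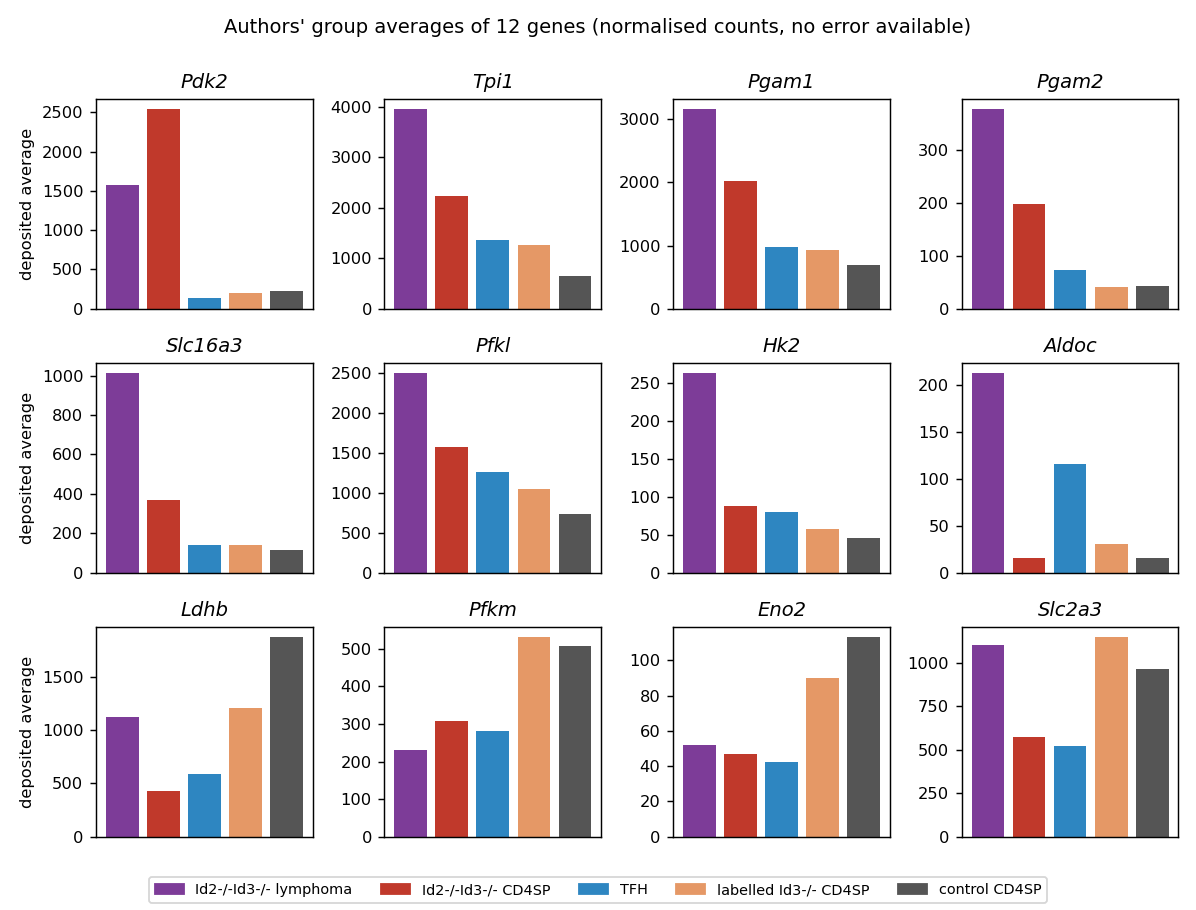
Deposited averages in normalised counts (each axis starts at 0, no error is available) of 12 members in lymphomas, Id2-/-Id3-/- CD4SP cells, TFH cells, the libraries labelled Id3-/- and control cells, left to right. Pdk2, Tpi1, Pgam1, Pgam2, Slc16a3 and Pfkl stand above the other groups in lymphomas and Id2-/-Id3-/- CD4SP cells, Hk2 stands highest in lymphomas at 264, and Ldhb stands highest in control cells at 1876.

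Pgk1, Pdk3 and Pdha1 lie on the X chromosome, and the groups differed in transcripts that mark sex. Xist, which is transcribed from the inactive X of females, averaged 10477 in lymphomas, 19.7 in Id2-/-Id3-/- CD4SP cells, 9909 in TFH cells, 5059.97 in Id3-/- labelled libraries and 10461 in control cells. The Y-linked gene Ddx3y averaged 8.04, 1478, 533, 1402 and 663 in the same groups. Whether sex had a part in the X-linked averages was not tested. Without the 3 X-linked genes, 13 members remained over 2-fold higher in lymphomas than in control cells and 6 in Id2-/-Id3-/- CD4SP cells.

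**Figure D5:**
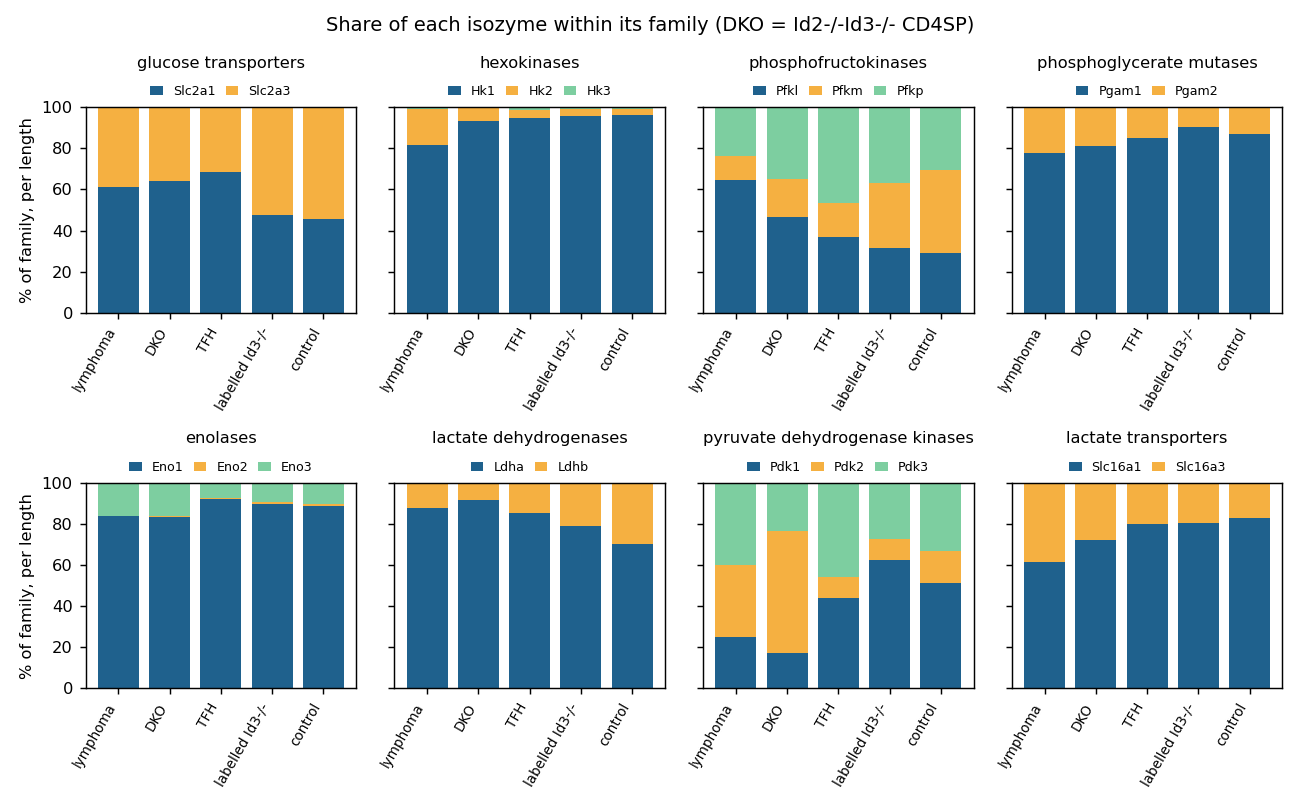
Percent of each isozyme family held by each gene, from averages divided by exon length, in lymphomas, Id2-/-Id3-/- CD4SP cells (DKO), TFH cells, the libraries labelled Id3-/- and control cells. Pdk2 holds 35.0% of its family in lymphomas and 59.4% in Id2-/-Id3-/- CD4SP cells, against 15.8% in control cells, and Ldhb 12.0% and 8.1%, against 29.7% in control cells.

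Compared on averages per kilobase of exon, the most abundant member was Ldha in lymphomas, Id2-/-Id3-/- CD4SP cells and the libraries labelled Id3-/-, and Pkm in TFH and control cells. Ldha stood at 5255 per kilobase in lymphomas, 3099 in Id2-/-Id3-/- CD4SP cells and 2868 in the libraries labelled Id3-/-, and Pkm at 2443 in TFH cells and 2864 in control cells. Hk3 was the least abundant in every group. The threshold of 2-fold cut close to several genes. In lymphomas Pfkfb3 at 1.98-fold fell just outside and Gpi1 at 2.04-fold just inside it, and in Id2-/-Id3-/- CD4SP cells Hk2 at 1.91-fold fell outside and Pdk3 at 2.06-fold inside. In the libraries labelled Id3-/- Tpi1 and Aldoc, at 1.95-fold and 1.93-fold, came closest to it.

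Genes that feed into or regulate the module gave a mixed picture. Of 31 further glycolysis and transport genes, 17 were kept, of which 4 were over 2-fold higher and 4 lower in lymphomas than in control cells, and 2 and 4 in Id2-/-Id3-/- CD4SP cells. Over all genes the shares were 18.7% and 18.2% in lymphomas and 15.1% and 10.9% in Id2-/-Id3-/- CD4SP cells. The counts lie within a few genes of these shares. Slc2a6, which encodes GLUT6, averaged 168 in lymphomas, 108 in Id2-/-Id3-/- CD4SP cells, 82.3 in TFH cells and 28.8 in Id3-/- labelled libraries, against 9.75 in control cells. Txnip, an inhibitor of glucose uptake, averaged 1846 in lymphomas and 1425 in Id2-/-Id3-/- CD4SP cells, against 5604 in control cells, and Pfkfb2 averaged 177 and 151, against 488 in control cells. Of 11 genes for pyruvate entry into mitochondria 10 were kept, and only Pcx, pyruvate carboxylase, passed 2-fold, at 193 in lymphomas, 177 in Id2-/-Id3-/- CD4SP cells and 121 in TFH cells, against 38.7 in control cells.

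The pentose phosphate pathway branches off at glucose 6-phosphate and makes NADPH and ribose. Of its 10 genes, 3 were over 2-fold higher in lymphomas than in control cells (G6pdx, Pgd and Tkt) and 1 in Id2-/-Id3-/- CD4SP cells, Tkt, and none was over 2-fold lower. Over all genes the shares higher were 18.7% and 15.1%, so both counts lie within a few genes of them. Tkt, transketolase, averaged 5542 in lymphomas and 4537 in Id2-/-Id3-/- CD4SP cells, against 2066 in control cells. Of 16 genes of the tricarboxylic acid cycle, Fh1, fumarase, alone passed 2-fold, at 1365 in lymphomas, against 625 in control cells, and none passed it in Id2-/-Id3-/- CD4SP cells. The median log2 ratio of the 16 was 0.53 in lymphomas and 0.14 in Id2-/-Id3-/- CD4SP cells.

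Among 20 regulators, Hif1a, the oxygen-regulated subunit of hypoxia-inducible factor 1, averaged 4361 in lymphomas, 2932 in Id2-/-Id3-/- CD4SP cells, 7591 in TFH cells, 1657 in Id3-/- labelled libraries and 1357 in control cells. Egln3, a prolyl hydroxylase of hypoxia-inducible factors that they also induce, averaged 1519, 514, 1119, 139 and 146 in the same groups. Both were thus above control in lymphomas, Id2-/-Id3-/- CD4SP cells and TFH cells. Myc averaged 4326 in lymphomas, 3015 in Id2-/-Id3-/- CD4SP cells, 626 in TFH cells, 2627 in Id3-/- labelled libraries and 1576 in control cells. Foxo1, a factor of resting T cells, averaged 913 in lymphomas and 843 in Id2-/-Id3-/- CD4SP cells, against 4103 in control cells, and Irf4 averaged 511 and 321, against 930.5 in control cells.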

How the data were processed

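RNA of 20 sorted samples was sequenced as strand-specific (dUTP) libraries on a HiSeq 2500. The authors aligned reads with OSA (Array Studio) to the mm10 genome and used RSEM for quantification and DESeq for normalisation, with versions not given in the sources used here. In the deposited table the signal of each gene is the authors' average of normalised counts over the libraries of a group, for 5 groups and 39179 genes. A further 12 columns hold the authors' own fold changes, p-values and false discovery rates and were not used. The table has 0 columns of values per library, so depth and spread are unknown and no test was run. Genes under 10 in all samples were removed according to the study's methods, yet 23643 genes of the table were under 10 in all 5 averages, 5285 of them at 0.

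Groups came from the sample labels. Genes with at least 1 average of 10 or more (15536) were kept. Log2 ratios of averages were taken without a pseudocount, and over 2-fold was counted. Levels were compared between genes per exon-union length (GENCODE M21, GRCm38, the build of mm10). Identifiers were matched to symbols for 37607 genes. Copies of members were rows sharing at least 20% of their 31-base words with a member, a rule chosen after seeing the data. The members and gene lists were chosen with earlier results of these data known. All members are reported. Of each other list, genes named are chiefly among the 3 farthest from a ratio of 1 in Id2-/-Id3-/- CD4SP cells with an average of at least 100, together with Hif1a, Myc, Txnip, Xist, Id2, Id3 and copies. All thymic epithelial and stromal markers, all CD8+ T-cell markers and Tfrc were named whatever their averages. G6pdx, Pgd, Fh1, Ddx3y, Cd22, Cd8a, S100a8, S100a9, Hba-a2, Hbb-bs, Spsb2, Gm11513 and Samd14 were named after their values were seen. The counting code was run on simulated averages with known folds and no noise, which checks the code and not the reliability of the counts. Python 3.11.15, numpy 2.4.6, pandas 2.3.3 and matplotlib 3.10.9 were used. Alternatives were other minimum averages, added constants, rescaling, other folds, and leaving out X-linked genes.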

Additional observations from a re-analysis of the deposited data

How the results depend on the processing

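No paired analysis was possible because the table holds group averages only, and leaving out each replicate could not be run for the same reason. Counts past 2-fold depended most on the fold. At 1.5-fold, 4 members were lower in lymphomas than in control cells, 13 were higher and 7 lower in Id2-/-Id3-/- CD4SP cells, 9 higher and 8 lower in TFH cells, and 4 higher and 1 lower in the libraries labelled Id3-/-, while 21 were higher and 1 lower in lymphomas than in Id2-/-Id3-/- CD4SP cells. At 3-fold these were 0 lower in lymphomas, 4 higher and 1 lower in Id2-/-Id3-/- CD4SP cells, 1 higher and 2 lower in TFH cells, and 1 higher in lymphomas than in Id2-/-Id3-/- CD4SP cells. The count of members higher in lymphomas than in control cells stayed within 1.5 times its 2-fold value at both other folds. The shares over all genes at 1.5-fold and 3-fold are not given, so these counts cannot be set against them. Adding 10 to both averages left 1 member over 2-fold lower in lymphomas than in control cells. Rescaling the groups to equal sums put the median log2 ratio of the members at 0.79 for lymphomas against control and at 0.56 for lymphomas against Id2-/-Id3-/- CD4SP cells, while the median over all genes in these comparisons became -0.18 and -0.08. It also turned the sign of 8 ratios of single members, all of them near 1, among them Slc2a3 in lymphomas against control and Aldoa in lymphomas against Id2-/-Id3-/- CD4SP cells. Leaving out the filter, a minimum of 100, adding 1, a median log2 ratio of 0, and adding near-identical copies (chosen after seeing the data) kept every count of members past 2-fold within 1.5 times its value. Without replicate values, how far any average depends on a single library, and the depth behind it, cannot be given.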

Other observations

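Among the further glycolysis and transport genes, 5 named here were chosen after their values were seen. Bsg, the chaperone that brings MCT1 and MCT4 to the cell surface, averaged 2763 in lymphomas, 2636 in Id2-/-Id3-/- CD4SP cells, 2034 in TFH cells, 2232 in Id3-/- labelled libraries and 2046 in control cells, a narrower range than that of Slc16a3. Emb, a related chaperone, averaged 3764 in lymphomas and 883 in Id2-/-Id3-/- CD4SP cells, against 2839 in control cells. Ldhd, a mitochondrial dehydrogenase of D-lactate, averaged 468 in lymphomas and 108 in Id2-/-Id3-/- CD4SP cells, against 122 in control cells. Slc16a6, a member of the monocarboxylate transporter family, averaged 1003 in lymphomas and 323 in Id2-/-Id3-/- CD4SP cells, against 636 in control cells. Emb, Ldhd and Slc16a6 thus each stood higher in lymphomas than in Id2-/-Id3-/- CD4SP cells, by log2 ratios of 2.09, 2.11 and 1.63. Galm, which interconverts the anomers of hexoses, averaged 40.0 in lymphomas, 246 in Id2-/-Id3-/- CD4SP cells and 518 in TFH cells, against 146 in control cells.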
